A study of Homo sapiens with 4 samples.

Results

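The sites described here are the genomic intervals that carried a MIR205HG ChIRP peak in each of 3 replicate experiments on RWPE-1 cells. A site was a peak of replicate 1 on chromosomes 1 to 22 or X that overlapped a peak of replicate 2 and a peak of replicate 3 by at least 1 bp. This rule was met by 689 of the 723 replicate 1 peaks (95.3%), out of 28542 peaks in the 3 lists together. RWPE-1, a non-tumour prostate epithelial line of basal type, was immortalized and grown untreated in serum-free medium with epidermal growth factor and pituitary extract. Cells were fixed with formaldehyde for 10 min and sonicated to 500 to 800 bp, and the chromatin was captured with 100 pmol of either the MIR205HG probe pool (3 libraries) or the lacZ probe pool (1 library), all from a single cell line. The lacZ library was the control for all 3 peak lists and had no list of its own, so the 3 sets of calls share their background.

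In ChIRP, biotinylated antisense oligonucleotides hybridize to an RNA in crosslinked chromatin, and the DNA that comes down on the beads is sequenced. MIR205HG is the host gene of miR-205 in stratified and basal epithelia. Its spliced transcript, also called LEADR, is a long noncoding RNA found in the nucleus that carries an Alu element, a short repeat present in very many copies across human DNA.

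The rule selected sites on the peak lists themselves, so the peak values below describe the members and were not tested. Replicate 1 had by far the shortest list and thus set the membership. Of the 10765 peaks of replicate 2, 6.14% overlapped a peak of both other lists, and of the 17054 peaks of replicate 3, 3.81% did. Each site overlapped exactly 1 peak of replicate 2 and 1 of replicate 3, but neighbouring sites could share a partner, and the 689 sites fell in 661 peaks of replicate 2 and 648 of replicate 3. At 642 sites the replicate 1 peak lay wholly inside both partners. The smallest overlap was 73 bp, at chr3:149346954-149347062 (hg19), where fold enrichment over lacZ was 7.76 in replicate 1, 7.74 in replicate 2 and 10.6 in replicate 3. The closest miss was the replicate 1 peak at chr14:29336289-29336424, which lay 65 bp from the nearest peak of the other list it failed to meet and had a fold enrichment of 8.98. Of the 34 replicate 1 peaks outside the rule, 24 overlapped replicate 3 only, 1 overlapped replicate 2 only and 9 overlapped neither.

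Many site summits lay next to a short exact copy of MIR205HG sequence. The 1007 nt spliced transcript (ENST00000429156.6_2; gene at chr1:209602162-209606193, hg19) was compared with 301 bp of genome around each replicate 1 summit, leaving out its Alu part, bases 178 to 399. An exact match of at least 12 nt on either strand was present at 249 sites (36.1%, exact Clopper-Pearson 95% interval 32.5 to 39.9). Such intervals cover counting error only. The same share was 9.90% in the 8017 peaks shared by replicates 2 and 3 but not replicate 1 (interval 9.26 to 10.6), around their replicate 2 summits, and 4.26% in consecutive windows of that length on these chromosomes. In the 34 replicate 1 peaks outside the rule it was 44.1% (15 peaks, interval 27.2 to 62.1), so the match was not particular to the sites. The search was chosen with the data in view, and the differences between these shares were not tested.

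Most of these matches, 233 of the 249, fell on 8 short stretches of the transcript, defined as the bases matched downstream of the summit at 5 or more sites. Stretch 1, bases 17 to 35, was the longest match at 110 sites. It is shown first because it accounts for the largest number of sites, with sites of high mean fold enrichment written in the direction of the transcript. Capitals mark the stretch in the transcript and the exact match in the genome.
MIR205HG bases 11 to 41: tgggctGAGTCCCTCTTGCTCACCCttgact
chr20:13012043-13012073, plus strand, nearest to SPTLC3: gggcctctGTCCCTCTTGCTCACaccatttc
chr15:94516691-94516721, minus strand, nearest to MCTP2: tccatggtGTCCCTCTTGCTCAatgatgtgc
chr2:217738793-217738823, plus strand, nearest to TNP1: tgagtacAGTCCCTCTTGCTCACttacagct
chr6:163998238-163998268, plus strand, nearest to QKI: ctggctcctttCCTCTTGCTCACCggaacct
In all 4 the bases outside the capitals differed from the transcript at most positions, and 20, 18, 21 and 20 of the 31 bases were identical, in the order shown.

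Stretch 8, near the 3′ end of the transcript at bases 944 to 961, was the longest match at 33 sites, among them the site with the highest mean fold enrichment of all. Of its 32 downstream matches, 19 began at base 944. The 4 sites shown lie on different chromosomes.
MIR205HG bases 938 to 967: aattgaTGCTATGAAAATTTGCGTtttctg
chr15:39020944-39020973, minus strand, nearest to RASGRP1: aaaactgGCTATGAAAATTTGCagaattcc
chr2:139397395-139397424, plus strand, nearest to SPOPL: atccgtTGCTATGAAAATTTGagatggttg
chr11:107015835-107015864, plus strand, nearest to GUCY1A2: taatgcaGCTATGAAAATTTGtgtacaagt
chr5:134753749-134753778, plus strand, nearest to MACROH2A1: ttttgtctCTATGAAAATTTGCGTacaggg

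Stretches 4 and 5 lay close together, at bases 438 to 454 and 461 to 475, and were the longest match at 26 and 18 sites. They are shown because they gave the longest match among the highest ranked sites, 17 nt near RPS29, and a group of sites that share sequence beyond the match.
MIR205HG bases 432 to 460: ggccccCACCTTTCCTCAGGAGTcatttc
chr14:49186007-49186035, plus strand, nearest to RPS29: actggtCACCTTTCCTCAGGAGTgctccc
chr9:102098659-102098687, minus strand, nearest to SEC61B: atactaCACCTTTCCTCAGGgattattgc
MIR205HG bases 455 to 481: catttcTGTTCCGCACAGGCCtgctga
chr1:56196925-56196951, minus strand, nearest to USP24: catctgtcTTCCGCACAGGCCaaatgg
chr2:189772866-189772892, plus strand, nearest to COL3A1: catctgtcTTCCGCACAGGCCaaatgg
chr11:132247732-132247758, minus strand, nearest to NTM: catctgtcTTCCGCACAGGCCaaatga
chr5:173046160-173046186, minus strand, nearest to BOD1: aaacaaTGTTCCGCACAGccatttccg
The first 3 of the stretch 5 alignments are nearly the same sequence at different places, so they share a sequence and are not independent examples of the match. The remaining stretches were bases 40 to 55 (18 sites), 101 to 115 (11 sites), 484 to 498 (7 sites) and 520 to 532 (10 sites). Together the 8 stretches covered 128 of the transcript's bases. The capture probes are short antisense oligonucleotides spaced along the whole transcript. Their sequences were not used here, and whether the stretches coincide with them was not tested.

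**Figure D1:**
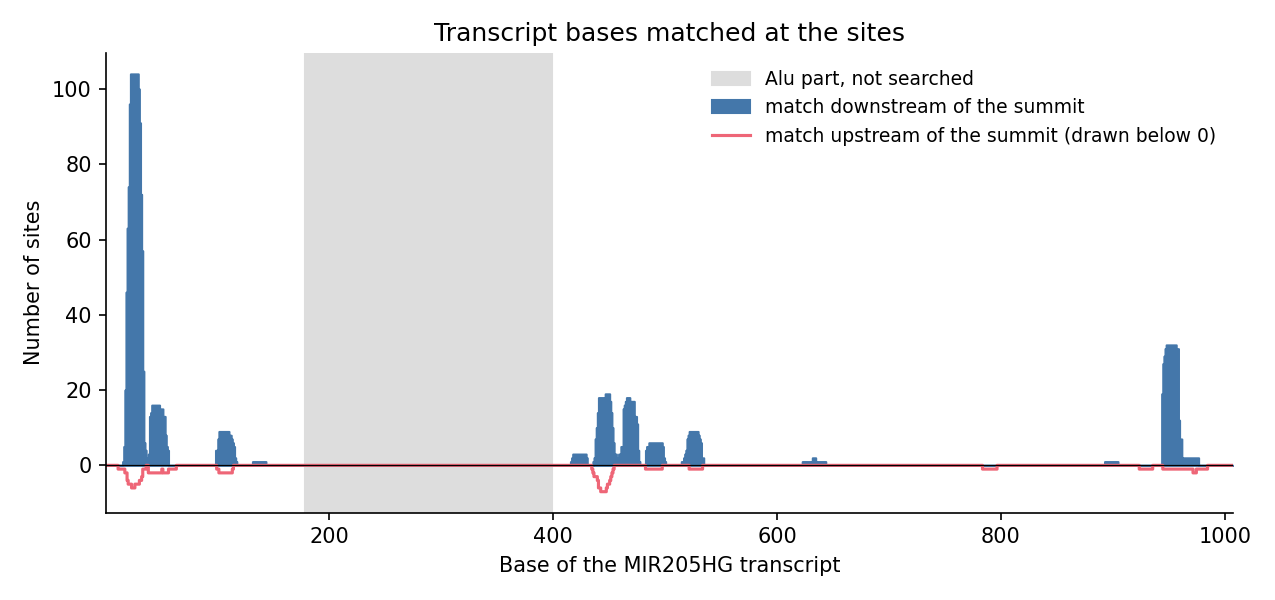
Number of sites (vertical axis) whose longest exact match of at least 12 nt covers each base of the MIR205HG transcript (horizontal axis, base 1 to 1007), with matches downstream of the replicate 1 summit above 0 and upstream matches below 0. The downstream matches pile up on 8 stretches and reach 104 sites at the most matched bases of stretch 1, whereas the upstream matches reach 7 sites at any base.

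Most of the matches also lay in a narrow band relative to the replicate 1 summit. Read in the direction of the transcript, 222 of the 249 matches (89.2%, interval 84.6 to 92.7) lay downstream of the replicate 1 summit, 25 lay upstream and 2 lay across it. Among the downstream matches, the first matched base was a median of 81 bp from the summit (quartiles 74 and 84). In the band from 60 to 100 bp downstream there were 203 matches, and in the same band upstream there were 13. The genome strand made no such split, as 120 of the 249 matches were on the plus strand and the others on the minus strand. Over the downstream matches of each of the 8 stretches the median lay between 78.5 and 83 bp. The stretches were defined on downstream matches, so the side was part of the selection. Upstream matches, 0 to 7 per stretch, were left out of these medians, and stretch 6 had the fewest downstream matches, 6.

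Around the summits of replicate 2 at the same sites, 197 of 239 matches (82.4%) lay downstream, with a median of 54 bp and quartiles of 29 and 76. Around those of replicate 3, 207 of 252 (82.1%) did, with a median of 55 bp and quartiles of 30.5 and 76. The distances were thus more spread around the summits of replicates 2 and 3. In the peaks shared by replicates 2 and 3 only, 516 of 794 matches (65.0%) lay downstream, with a median of 59 bp. In the replicate 1 peaks outside the rule, 14 of 15 matches lay downstream, with a median of 82 bp, as at the sites. The replicate 1 summits thus stood farther from the match than the summits of the other lists. Whether this distance depends on how each list was called was not tested.

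**Figure D2:**
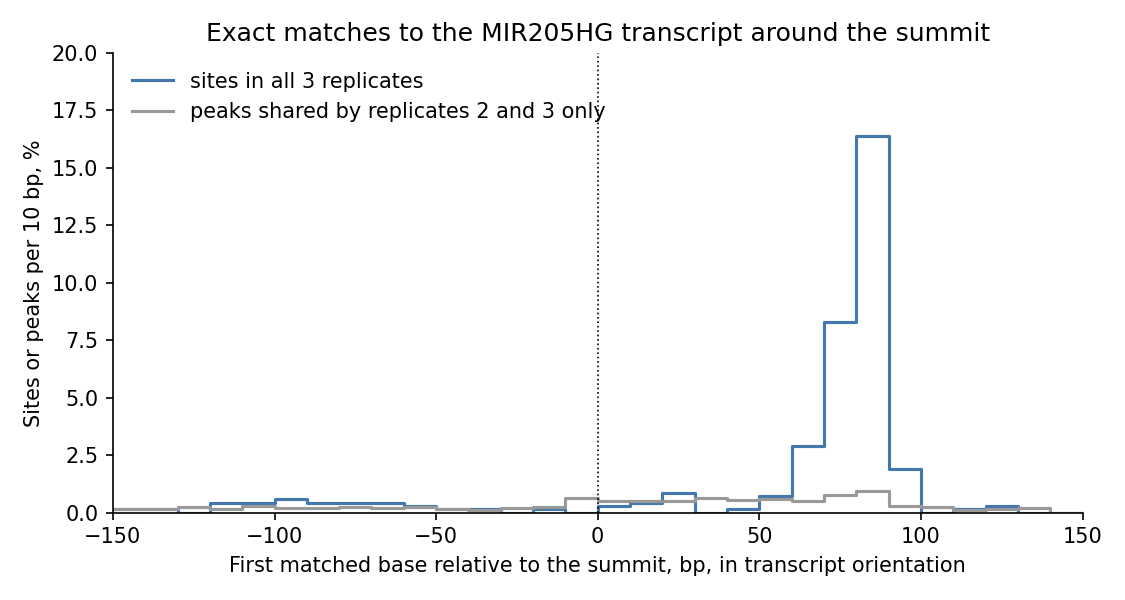
Share of sites, or of peaks shared by replicates 2 and 3 only, per 10 bp (vertical axis, %) whose longest exact match to the transcript begins at each distance from the summit (horizontal axis, bp, in transcript orientation, negative upstream). Around the replicate 1 summits, the sites peak from 80 to 89 bp downstream, with 113 matches. They stay at or below 6 matches in each 10 bp step upstream of the summit and from 0 to 59 bp downstream.

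Windows of 140 bases show the arrangement at the sites ranked first and second by the mean over replicates of log2 fold enrichment. Each is written in the direction of the transcript with the replicate 1 summit at base 21 and the exact match in capitals. They are given because both lie outside any annotated TSS region and hold no aligned Alu.
chr15:39020926-39021065, minus strand, nearest to RASGRP1: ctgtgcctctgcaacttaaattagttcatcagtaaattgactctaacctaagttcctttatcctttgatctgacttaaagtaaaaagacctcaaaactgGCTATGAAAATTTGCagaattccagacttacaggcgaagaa
chr5:78220194-78220333, minus strand, in an intron of ARSB: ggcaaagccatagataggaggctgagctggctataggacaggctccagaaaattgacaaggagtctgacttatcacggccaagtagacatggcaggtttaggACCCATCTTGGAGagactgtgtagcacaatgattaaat
The match near RASGRP1 spans bases 100 to 114 of its window, and the match in ARSB bases 103 to 115.

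Some sites without a match of 12 nt held shorter matches in the same band. Of these 440 sites, 104 (23.6%, interval 19.7 to 27.9) had at least 9 nt of one of the 8 stretches beginning 60 to 100 bp downstream of the summit, and 16 (3.64%, interval 2.09 to 5.84) had one in the mirrored band upstream. With at least 11 nt the counts were 27 and 1. Stretch 1 gave 62 of the 9 nt matches downstream and 3 upstream, and stretch 5 gave 28 and 1. The other 6 stretches had few matches on either side, and stretches 2 (3 and 3) and 3 (3 and 5) had no excess downstream. These sites did not enter the definition of the stretches, but they come from the same set of sites, and the search was chosen with the data in view.

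Pooled over the stretches, longer copies in the genome more often had a peak. Exact copies of 12 nt of a stretch occurred 16803 times on chromosomes 1 to 22 and X, and a summit within 150 bp was present at 0.268% of them in replicate 1, 1.37% in replicate 2 and 3.86% in replicate 3. At the 705 copies of 14 nt the shares were 8.79%, 21.6% and 37.4%. At the 163 copies of 15 nt they were 26.4%, 49.1% and 69.3%, and at the 35 copies of 16 nt or more, 37.1%, 65.7% and 74.3%. The stretches were defined on the sites, and every site is a peak in all 3 lists, so none of these shares is independent of the choice. The mix of stretches changed with length, and single stretches did not all rise: the replicate 1 share of stretch 1 was 22.6% at 14 nt and 13.8% at 15 nt (4 of 29 copies). The stretches also differed at equal length: 22.6% of the 164 copies of 14 nt of stretch 1 had a replicate 1 summit and 2.70% of the 185 copies of stretch 8, while at 13 nt the share was 42.9% of the 21 copies of stretch 5. These differences were not tested.

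**Figure D3:**
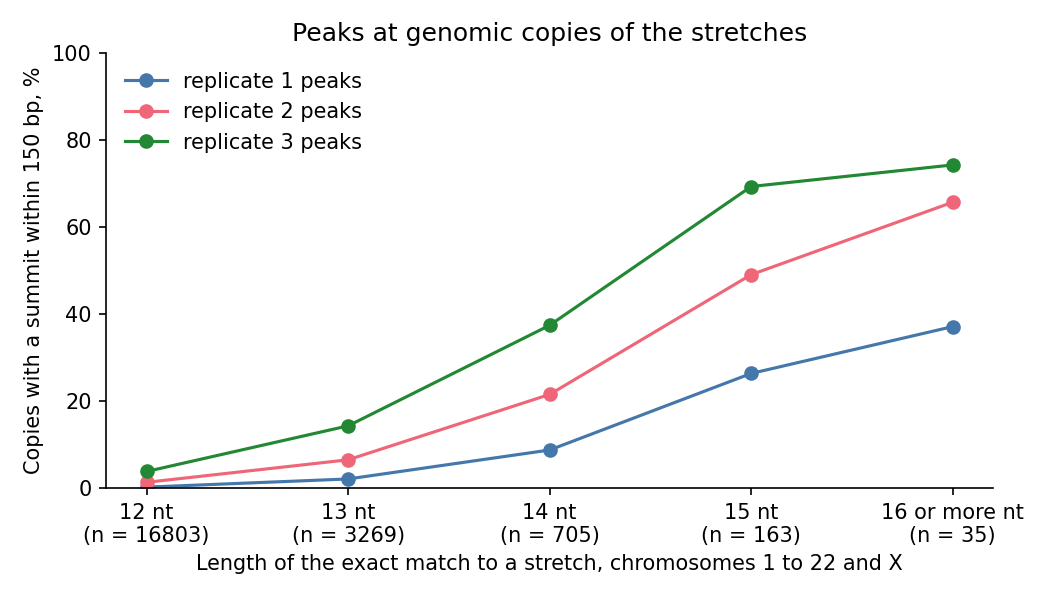
Share of exact genomic copies of the 8 stretches with a peak summit within 150 bp (vertical axis, %) against the length of the copy (horizontal axis, nt, with the number of copies), one line per replicate. All 3 lines rise with length, from 0.268% to 37.1% in replicate 1 and from 3.86% to 74.3% in replicate 3.

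The sites were then split by an exact match of at least 12 nt downstream and, for those without one, by an Alu alignment of at least 100 bp. At the 222 sites with a downstream match the median fold enrichment was 10.3 in replicate 1, 11.4 in replicate 2 and 19.9 in replicate 3. The 98 sites with such an Alu alignment and no downstream match had 7.11, 11.3 and 14.97, and the other 369, some of which held upstream matches or shorter Alu alignments, had 8.13, 11.3 and 16.2. The medians in replicate 2 were thus nearly equal. All 3 summits lay within 100 bp of each other at 91.0% of the sites with a match (interval 86.4 to 94.4), 58.2% of those with Alu (47.8 to 68.1) and 68.6% of the other 369 (63.6 to 73.3). The sites with a match had the narrowest peaks, with medians of 142, 326 and 488 bp in the 3 lists, and the lowest GC content, a median of 38.7% against 47.8% at the Alu sites and 42.5% at the others, in the same windows that were searched. They lay farther from protein-coding TSSs, with a median of 93.3 kb against 25.4 kb for the Alu sites and 66.2 kb for the others. Their summit was inside a protein-coding gene at 90 of the 222 (40.5%), against 59.2% of the Alu sites and 46.6% of the others. Sites of 1 class share sequence, so no test over sites was made.

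The Alu part of the transcript itself was less common at the sites than at the peaks shared by replicates 2 and 3 only. An alignment of at least 100 bp to it within the 301 bp window was found at 101 sites (14.7%, interval 12.1 to 17.5). It was found at 27.4% of the peaks shared by replicates 2 and 3 only (interval 26.4 to 28.4) and in 5.82% of every 20th window of the genome. The share at the sites depended on the length required, with 234 sites (34.0%) at 50 bp and 0 of 689 at 150 bp, where a limit of 3 counts allows a share of up to 0.435%. Exact matches of at least 12 nt within the Alu part were placed on both sides of the summit, with 130 of 233 downstream and 87 upstream. The median GC content of the windows was 42.5% at the sites (quartiles 37.2 and 46.5), 49.2% at the peaks shared by replicates 2 and 3 only and 40% in the windows of the genome.

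The sites were among the most enriched peaks of replicates 2 and 3. Fold enrichment, as deposited, divides the ChIRP signal at the summit by the local lacZ level, with 1 added to both. At the sites it had a median of 8.67 in replicate 1, 11.4 in replicate 2 and 16.7 in replicate 3. Over all peaks the medians were 8.67, 6.07 and 6.81. The median site stood at percentile 92.6 of fold enrichment in the replicate 2 list and 95.8 in the replicate 3 list, and 77 of the 100 most enriched peaks were at sites in each of these lists. Fold enrichment was highest in replicate 3 at 597 sites, in replicate 2 at 65 and in replicate 1 at 27. Across the 689 sites, the Spearman correlation of fold enrichment was 0.26 between replicates 1 and 2, 0.45 between 1 and 3 and 0.71 between 2 and 3. The 3 values of a site share the lacZ library, and sites are not replicates, so no p is given.

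The reads behind these values, solved from the deposited fold enrichment and p-value, were a median of 27 at the summit in replicate 1, 40 in replicate 2 and 43 in replicate 3. The lacZ level at the sites, from the same solution, had a median of 0.763 for replicate 1, 1.30 for replicate 2 and 1.27 for replicate 3. For replicate 1 its lower quartile, 0.427, was also the lowest level over all peaks of that list. The lowest levels over all peaks were higher in the other lists, 0.822 for replicate 2 and 0.846 for replicate 3. The part of peak calling in these levels and in the read counts was not tested. Replicate 1 was the deepest library by this solution, 1.83 times the lacZ library, against 1.39 for replicate 2 and 1.00 for replicate 3. At the sites, depth and median fold enrichment thus ran in opposite order over the replicates, which was not so over all peaks, and the part of depth in the differences was not tested.

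**Figure D4:**
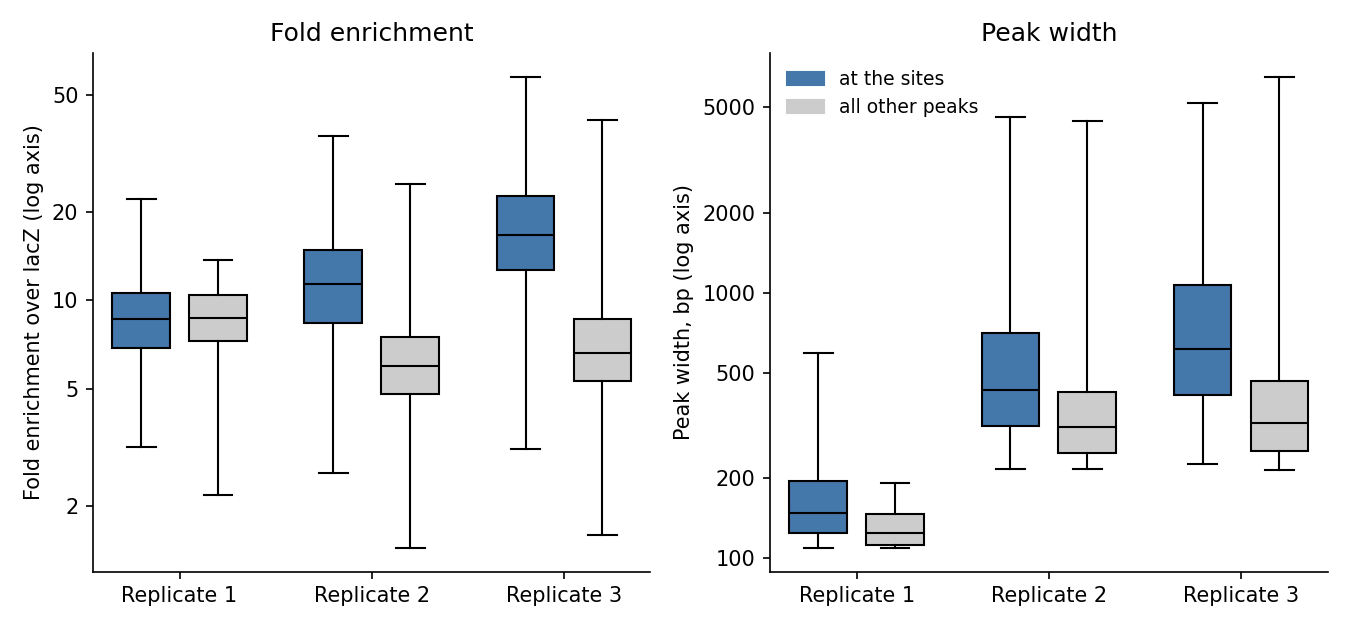
Fold enrichment over lacZ (left, log axis) and peak width in bp (right, log axis) of the peaks at the 689 sites and of all other peaks of each replicate (boxes, quartiles with the median; whiskers, lowest and highest). The medians at the sites are 8.67, 11.4 and 16.7 for fold enrichment and 148, 430 and 616 bp for width, and both exceed those of the other peaks in replicates 2 and 3.

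Peak width differed between the replicates. The median width at the sites was 148 bp (quartiles 125 and 196) in the list of replicate 1. It was 430 bp (314 and 706) in that of replicate 2 and 616 bp (412 and 1075) in that of replicate 3. The replicate 1 peak was the narrowest of the 3 at all 689 sites, and the replicate 3 peak the widest at 593. The lists had different lower limits of width. Among all peaks called, none was shorter than 109 bp (replicate 1), 217 bp (replicate 2) or 216 bp (replicate 3). The upper quartile of replicate 1 at the sites, 196 bp, was thus below the shortest peak of either other list. Whether the lists were called with the same settings was not tested, nor was the part of these limits in the widths. In replicate 3, 196 sites (28.4%) lay in a peak of at least 1000 bp.

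The summits of the 3 lists lay close together. Summits of replicates 1 and 2 were a median of 43 bp apart, those of 1 and 3 were 38 bp apart and those of 2 and 3 were 28 bp apart. All 3 summits fell within 100 bp at 512 sites (74.3%, interval 70.9 to 77.5), within 50 bp at 291 and within 20 bp at 102. The distances had no overall direction along the genome, with a signed median of -1 bp for both pairs with replicate 1. They fell within 500 bp at 633 sites, and the widest span was 1641 bp.

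**Figure D5:**
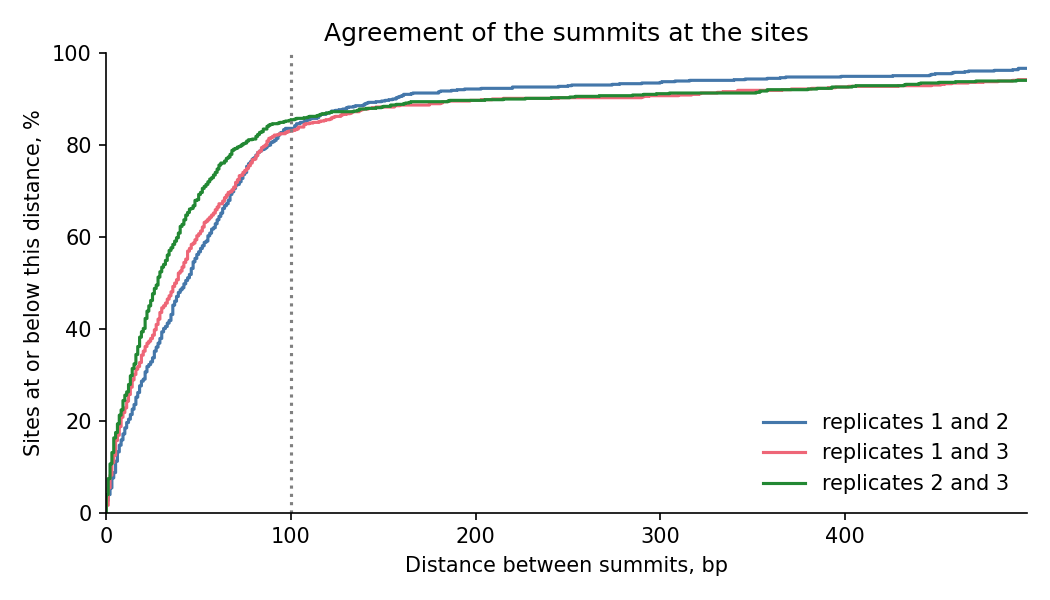
Share of the 689 sites (vertical axis, %) whose summits in a pair of replicates lie at or below each distance (horizontal axis, bp), one line per pair; the dotted line marks 100 bp. Between 83.0% and 85.5% of sites lie at or below 100 bp in every pair, and the lines flatten beyond it.

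The 15 highest ranked sites lay mostly outside protein-coding genes. Their nearest protein-coding genes included RASGRP1, a Ras exchange factor, ARSB, a lysosomal sulfatase, PFDN1, a prefoldin subunit, USP24, a deubiquitinase, COL3A1, a fibrillar collagen chain, RPS29, a ribosomal protein, CDH9, a cadherin, SPOPL, an adaptor of ubiquitin ligases, NTM, a neural adhesion molecule, GALC, a lysosomal galactosidase, BOD1, a protein of chromosome biorientation, SEC61B, a translocon subunit, and MAPK8, the kinase JNK1. PFDN1 was nearest to 2 of them. The summit was inside the gene at ARSB and MAPK8 and outside it at the other genes named. Of the 15, 11 had a downstream match of at least 12 nt, against 222 of all 689 sites (32.2%).

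The site nearest to RASGRP1, 163 kb upstream of its TSS, reached a fold enrichment of 22.1 in replicate 1, 28.8 in replicate 2 and 42.6 in replicate 3, with 56, 73 and 78 reads at the summit. The site in ARSB had 21.6, 26.7 and 45.6, and the site in MAPK8 had 16.1, 21.4 and 40.7 with a match of 15 nt to stretch 6. All 3 sites were highest in replicate 3 and lowest in replicate 1. The site nearest to RPS29, 867 kb away from its TSS, had 21.96, 21.7 and 40.3, and that nearest to COL3A1 had 20.6, 26.5 and 37.8. The site nearest to GALC (17.9, 24.2 and 35.6) had no match of 12 nt. It had 11 nt of stretch 7, from base 522, beginning 92 bp downstream of the summit. The pair of sites 15.5 and 16.03 kb upstream of PFDN1 shared 1 peak in replicate 2 and 1 in replicate 3, with fold enrichments of 36.1 and 42.8 there, against 14.7 and 8.52 in replicate 1. These 2 sites had Alu alignments of 117 and 85 bp and no match of at least 8 nt to a stretch in the band from 60 to 100 bp downstream.

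Few sites lay at promoters, and their share was near that of sequenced bases at such positions. Within 1500 bp upstream to 500 bp downstream of any annotated TSS there were 50 sites (7.26%, interval 5.43 to 9.46), against 11.9% of the peaks shared by replicates 2 and 3 only (interval 11.2 to 12.6). Such positions make up 7.58% of the sequenced bases, which is a share of bases and not of intervals. Sites were counted by their replicate 1 intervals (median 148 bp). The other peaks were counted by their replicate 2 intervals, and the median over all replicate 2 peaks was 316 bp. By the replicate 1 summit, 47 sites (6.82%) were proximal. For protein-coding transcripts there were 17 sites (2.47%, interval 1.44 to 3.92), against 4.69% of the peaks shared by replicates 2 and 3 only and 2.55% of bases. The median distance from the summit to a protein-coding TSS was 64.7 kb at the sites and 33.3 kb at the peaks shared by replicates 2 and 3 only, and 76 sites (11.03%) had none within 500 kb.

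Among the sites at protein-coding promoters, RFX5, a transcription factor of MHC class II genes, ranked highest. Its site at chr1:151317783-151318051 had fold enrichments of 8.78, 32.4 and 39.4, lay in an intron and had an Alu alignment of 93 bp and no match of 12 nt. ANGEL1 followed, with 10.3, 21.5 and 32.4 and neither feature. RNF43, a ubiquitin ligase that removes Wnt receptors from the cell surface, had 9.87, 12.2 and 28.6 at a site with a match of 16 nt to stretch 8. The promoter sites of INVS, a ciliary protein whose site is nearest to the TSS of ERP44, and of EIF3E, a subunit of a translation initiation factor, matched stretch 1 over 12 and 13 nt. SMAP2, which encodes an Arf GTPase-activating protein, had 2 such sites, with fold enrichments of 7.32, 21.1 and 25.4 and of 9.49, 11.8 and 26.9. The others among the 15 highest ranked were near DTX2, UTP11, EPB41L1, BOD1, PPFIBP2, ZNF91, COPZ1 and DYNLRB1. None of these 8 had a match of 12 nt to the transcript.

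The summit lay in a protein-coding gene at 320 sites (46.4%, interval 42.7 to 50.2), close to the 45.9% of sequenced bases in such genes, and at 52.0% of the peaks shared by replicates 2 and 3 only. Of these 320, 297 were intronic and 23 exonic. The 288 protein-coding genes with a site inside had a median length of 175 kb, against 27.3 kb for all protein-coding genes. A set of 42 genes held 2 or more sites, and 4 held 3: CLIP1, a microtubule plus-end protein, GRIP1, a synaptic scaffold, SEL1L3 and SMAP2. In CLIP1 all 3 sites fell in 1 peak of replicate 2 and 1 of replicate 3. In GRIP1, 722 kb long, they fell in separate peaks, and those with fold enrichments of 12.8, 13.4 and 22.7 and of 13.9, 5.51 and 11.2 matched stretch 4 over 13 nt and stretch 1 over 15 nt.

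Few genes of any kind had a site nearby. Of 9 gene lists, 5 had no gene with a site inside it or within 10 kb: 30 basal epithelial genes, 26 luminal epithelial genes, 49 interferon response genes, 41 genes of TGF-beta and Wnt signalling and 33 cell junction genes. Over all 20090 protein-coding gene names the share was 1.80%, or 361 genes, so a count of 0 in lists of these sizes is near the background. The MHC class II list had 1 of 17 (RFX5), the chromatin modifiers 1 of 88 (NCOR1), growth factor signalling 1 of 44 (PIK3CA), and the cell cycle and p53 list 1 of 34 (CDK6). Each of these shares rests on a single gene, and none was tested.

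The site in CDK6, a G1 cyclin-dependent kinase, lay 144 kb into the gene with fold enrichments of 9.08, 15.7 and 26.3. NCOR1, a corepressor of nuclear receptors, had 2 sites 0.415 kb apart, with 9.62, 16.8 and 19.97 and with 4.33, 5.99 and 19.97, the replicate 3 value coming from 1 shared peak. PIK3CA, the catalytic p110alpha subunit of PI3-kinase, had an exonic site with 7.32, 5.27 and 8.30, the weakest of these. MIR205HG itself was no site. Its gene held 0 peaks in replicates 1 and 2, whose nearest peaks were 1748 kb and 786 kb away, and 2 peaks in replicate 3, with a fold enrichment of 9.21 at chr1:209603334-209604811.

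Along the chromosomes most sites had no other site within 100 kb, but a part lay in tight groups. The nearest other site was a median of 924 kb away, against 1.71 kb for the peaks shared by replicates 2 and 3 only. Those peaks are far more numerous, 2.83 per Mb against 0.243 per Mb, so these medians do not compare clustering. The spacing that such densities alone would give was not worked out. Another site lay within 100 kb of 166 sites (24.1%, interval 20.9 to 27.5), and for 117 (17.0% of all sites) it lay within 1 kb. With sites chained at 100 kb there were 74 pairs and 6 groups of 3. The 5 tightest groups of 3 spanned 1.19 to 1.68 kb, in SEL1L3, nearest to ELAVL2, upstream of PFDN1, in CLIP1 and in SMAP2. The groups in SEL1L3 and CLIP1 and near PFDN1 each fell in 1 peak of replicate 3, and the groups near ELAVL2 and in SMAP2 each fell in 2. The group in SEL1L3 fell in a single replicate 3 peak with a fold enrichment of 18.4, while replicate 1 gave 5.96 to 7.86. The sixth group, near HSD17B3, spanned 99.9 kb and held the site with the widest replicate 1 peak. That site, at chr9:98915327-98915921, was 595 bp wide with fold enrichments of 10.6, 34.1 and 30.5.

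The density of sites varied between chromosomes. It was 0.243 per Mb of sequenced bases in all, highest on chromosome 20 (34 sites, 0.571 per Mb), 15 (0.453) and 9 (0.3995), and lowest on X (8 sites, 0.0529) and 22 (2 sites, 0.0573). The peaks shared by replicates 2 and 3 only were also densest on chromosome 20, at 6.86 per Mb, and sparsest on X, at 0.569 per Mb. Chromosomes 16, 17 and 19 did not follow this order. Chromosome 19 had the second highest density of those peaks, 5.23 per Mb, and 8 sites (0.143 per Mb), while chromosomes 17 and 16 had 4.50 and 4.31 of those peaks per Mb and 0.206 and 0.152 sites per Mb. Of the sites and those peaks together, the sites made up 2.67% on chromosome 19, 2.02% on chromosome 22, 13.7% on chromosome 4 and 7.91% over all chromosomes. RWPE-1 chromosome copy numbers were not measured here, and their part in these densities was not tested.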

How the data were processed

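The peak lists deposited for the 3 replicates of MIR205HG ChIRP were used. The authors aligned reads to hg19 and ran MACS2 on every replicate separately, with lacZ as the control. The submitters' processing notes name Bowtie 1.0.1 and MACS2 2.1.0, while the study's methods name Bowtie2. Peak names inside the lists carry other library numbers than the labels, and replicates follow the labels. The fold enrichment deposited by the authors is a ratio over the local lacZ level, with the same constant added to both terms. The deposited p-value and q-value are given as −log10, and the deposited score is the q-value rescaled for display. The library totals were not given, so depth was solved from the peak values.

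Python 3.11.15 served for overlaps, distances and matches, with pysam 0.24.0, pandas 2.3.3 and numpy 2.4.6, and Alu alignments with blastn 2.17.0+. The Alu part of the transcript was taken as the bases reaching at least 10% of its deepest blastn coverage over chromosome 20. Genes and the transcript came from GENCODE release 44 on GRCh37. Intervals are exact Clopper-Pearson 95% intervals from scipy 1.17.1. No test was run, since the sites were selected on the values and no second group has a list. Members, gene lists and alternatives were chosen with earlier results of these data known, and the search for matches was chosen after seeing them. Labels do not say whether the replicates are separate cultures. Genes were named for the 15 highest ranked sites by mean log2 fold enrichment, the 15 highest ranked at protein-coding promoters, genes with the most sites, the largest groups, listed genes within 10 kb, MIR205HG, the widest replicate 1 peak and the sites at the edge of the rule. 1 of the highest ranked sites is not reported here. The sites of the alignments are the highest ranked downstream matches of a stretch outside chromosome 8, and their nearest genes were named with them. In simulated windows, 99.5% of planted matches were recovered with strand, side and distance, and 2.20% of random windows had a match. The planted matches lay only 60 to 100 bp downstream, came only from bases after the Alu part and were longer than 12 nt. Upstream placement was not simulated. The random windows had equal base frequencies, whereas 4.26% of the windows of the genome had a match.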

Additional observations from a re-analysis of the deposited data

Results flagged for a closer look

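Peaks outside chromosomes 1 to 22 and X entered no comparison. There were 11 in replicate 1, 29 in replicate 2 and 57 in replicate 3. All 11 of replicate 1 lay on the unplaced contig chrUn_gl000220, with a highest fold enrichment of 2.94, and the lists of replicates 2 and 3 had none on it. Replicate 3 also had 4 peaks on the mitochondrial genome, chrM, where the other lists had none. No peak list of the lacZ library was used, so these signals could not be set beside a control list.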

How the results depend on the processing

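Membership rests on replicate 1: leaving out 1 replicate gave between 690 and 8678 sites, the highest without replicate 1. Under the stricter overlap, summit, fold enrichment, q-value and list alternatives the number stayed between 522 and 689. Leaving out 1 replicate gave between 7.01% and 11.7% of sites proximal to a TSS, 45.7% and 51.5% in a protein-coding gene, 14.3% and 26.6% with Alu, a median GC content of 42.2% and 48.8%, and 24.1% and 77.6% within 100 kb of another. It gave between 11.9% and 36.7% with a match to the transcript and between 69.0% and 89.3% of matches downstream, the far value again without replicate 1 throughout. With protein-coding transcripts only, 2.47% were proximal, and with all annotated genes 63.3% lay in a gene. Alu shares were 34.0% at 50 bp, 0 at 150 bp and 8.42% within the whole replicate 1 peak. Within 1 Mb of another site lay 52.2%. Within 100 kb, 16 listed genes had a site, against 4 within 10 kb. Among alternatives chosen after seeing the data, 19.9% of sites had a match of at least 14 nt and 45.9% one of 11 nt. The share downstream was 93.4% at 14 nt, 82.4% around replicate 2 summits and 82.1% around those of replicate 3. Taking the most enriched overlapping peak, or all pairs, gave the same values, since each site had 1 partner per list. No paired analysis was possible because there was only 1 lacZ library for the 3 MIR205HG libraries, and it has no peak list. Replicate 1 alone had 34 peaks outside the rule, too few to describe what the rule leaves out, and the shared lacZ library limits all 3 lists alike.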

Other observations

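For the 34 replicate 1 peaks that missed the rule, the same sequence measures are given as values only. An exact match of at least 12 nt to the transcript outside its Alu was present at 15 of them (44.1%, exact 95% interval 27.2 to 62.1), and 14 of these matches began 60 to 100 bp downstream of the summit, with a median of 82 bp among the downstream matches. An Alu alignment of at least 100 bp was present at 1 of the 34 (2.94%), and the median GC content was 36.9%. Their median fold enrichment in replicate 1 was 8.72, and 1 of them was proximal to a TSS.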
